A study of Homo sapiens with 6 samples.

Results

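MYC and 38 nucleolar ribosome assembly factors were examined in A549-TIPARP cells in comparison to A549-GFP cells. These 39 genes were taken by symbol from a list of MYC and known assembly factors that was drawn up with earlier results of these data known, and all 39 were found among the 53826 entries of each deposited table. All 39 also passed the filter of more than 2 TPM (a transcript's share of all transcripts in a library, corrected for its length) in at least 1 of the 6 libraries, which left 13181 genes for analysis. A549 cells derive from a human lung adenocarcinoma and are an established line. Those named A549-TIPARP stably carry the TIPARP coding region in the retroviral vector pMXs, and the A549-GFP control cells stably carry GFP in the same vector, so both lines went through transduction. RNA-seq was carried out on 3 libraries of each line, numbered by experiment. The labels do not say whether these were separate cultures, or whether a line is a clone or a pool, so the p-values measure only the spread between these libraries. Each library was deposited as log2 TPM without read counts, which leaves the depth unknown and gives no counting error.

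MYC is a transcription factor that binds DNA as a dimer with MAX, most often at the sequence called the E-box. Genes for ribosome production are among its best known targets. In the nucleolus, RNA polymerase I transcribes the ribosomal RNA precursor, small nucleolar ribonucleoproteins (snoRNPs) guide its modification and cleavage, and a succession of assembly factors builds the small and the large ribosomal subunit before both are exported. Cells that grow fast need much of this machinery, and MYC levels are often raised in lung adenocarcinoma.

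TIPARP, the transgene, was at 6.79, 11.4 and 3.68 TPM in A549-GFP and at 131, 90.5 and 123 TPM in A549-TIPARP, so the transgene followed the labels of all 6 libraries. Levels of a gene are given in the order of replicates 1, 2 and 3 of a line throughout. The 8 A549 epithelial markers were all analysed, with a summed level of 20293 to 35335 TPM in A549-GFP and of 31474 to 33627 TPM in A549-TIPARP. A deposited log2 value of 0, called listed at 0 here, can be a level at or below the floor of 1 TPM or a missing estimate, and these cannot be told apart. CDKN2A, which is deleted in A549, was listed at 0 in all 6 libraries, as were the 4 endothelial markers and the leukocyte markers PTPRC and CD3E. The other leukocyte markers, CD14 and CD68, brought the sum of that list to 28.1 to 73.1 TPM in A549-GFP and 28.1 to 41.7 TPM in A549-TIPARP, and the 4 fibroblast markers never summed to more than 2.56 TPM. The libraries were not equally alike. Over all analysed genes a library's root mean square distance to its line's mean ran from 0.15 for A549-TIPARP replicate 1 to 0.54 for A549-GFP replicate 2 on log2(TPM + 1). Every difference below is on that scale, as A549-TIPARP minus A549-GFP, and every p-value is from limma over all 13181 genes.

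MYC did not pass the test. Its level was 117, 60.1 and 95.7 TPM in A549-GFP and 82.6, 72.4 and 88.6 TPM in A549-TIPARP replicates 1, 2 and 3. A549-GFP held both the highest and the lowest library, and the A549-TIPARP libraries lay between them. The mean log2(TPM + 1) was 6.47 ± 0.49 (SD, n = 3) in A549-GFP and 6.36 ± 0.15 (SD, n = 3) in A549-TIPARP. The difference was -0.11 (standard error 0.25, 95% interval -0.68 to 0.46, limma adjusted p = 0.994). The value rested on both of the outer A549-GFP libraries. Without replicate 1 the sign turned and the difference was 0.09, and without replicate 2 it was -0.38 (limma adjusted p = 0.463).

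Of the 39 members, 34 had their lower mean in the TIPARP line and 5 their higher mean. Over all analysed genes 60.4% had a lower mean, and 63.2% of the 7676 genes in the members' range of mean level did. The median difference of the members was -0.26, against -0.06 over all analysed genes. The differences were small, from -0.59 for NOP2 to 0.26 for NPM1. No member had a limma adjusted p-value under 0.05 (0.0152% of all analysed genes did). NOP2 and PNO1 were the 2 members whose unadjusted limma p-value was under 0.05, both with the lower mean in A549-TIPARP. Over all analysed genes 3.85% had such a p-value, 0.88% with a lower and 2.97% with a higher mean. For 37 of the 39 members the difference between the lines was smaller than the spread of the 3 libraries within one of the lines. The share of all analysed genes for which this held was not computed, so the count does not set the members apart. All 3 A549-TIPARP libraries lay below all 3 A549-GFP libraries for 5 members, NOP2, PNO1, RRS1, GNL2 and IMP4 (3.54% of all analysed genes). No member had the opposite arrangement (5.36% of all analysed genes).

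**Figure D1:**
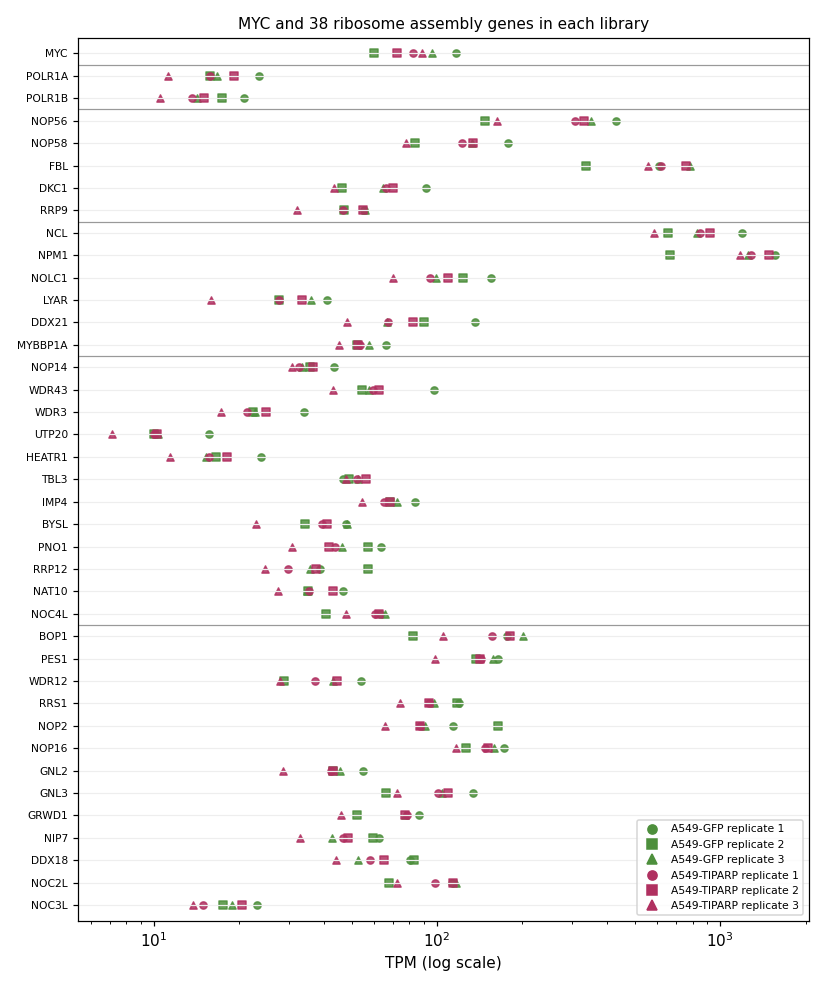
Level of each of the 39 members (TPM, log axis) in the 3 A549-GFP libraries (green) and the 3 A549-TIPARP libraries (magenta), with a circle, a square and a triangle for replicates 1, 2 and 3 and lines between the role classes. A549-TIPARP replicate 3 was the lowest of the 6 libraries for 30 members and A549-GFP replicate 2 for 8, counts that became 18 and 21 after median-ratio rescaling. Over all analysed genes the shares were 23.4% and 13.7%, and 15.3% and 31.0% after rescaling.

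The count of lower members rested on single libraries, and for 37 of the 39 members the difference turned sign or shrank more than 1.5 times when some single library was left out (all but PNO1 and RRS1). How many of all analysed genes did so was not counted. Without A549-TIPARP replicate 3, 26 of the 39 members had a lower mean, beside 56.2% of all analysed genes, and the median difference was -0.10. Without A549-GFP replicate 1 these values were 25 members, 59.4% and -0.10. Without A549-GFP replicate 2 they were 38 members, 42.6% and -0.36. With the libraries rescaled to a common median ratio, 33 members and 50.6% of all analysed genes were lower, with medians of -0.20 and -0.0035. With levels corrected for transcript GC content, an alternative added after seeing the data, 35 members and 49.8% of all analysed genes were lower, with a median of -0.17 for the members.

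**Figure D2:**
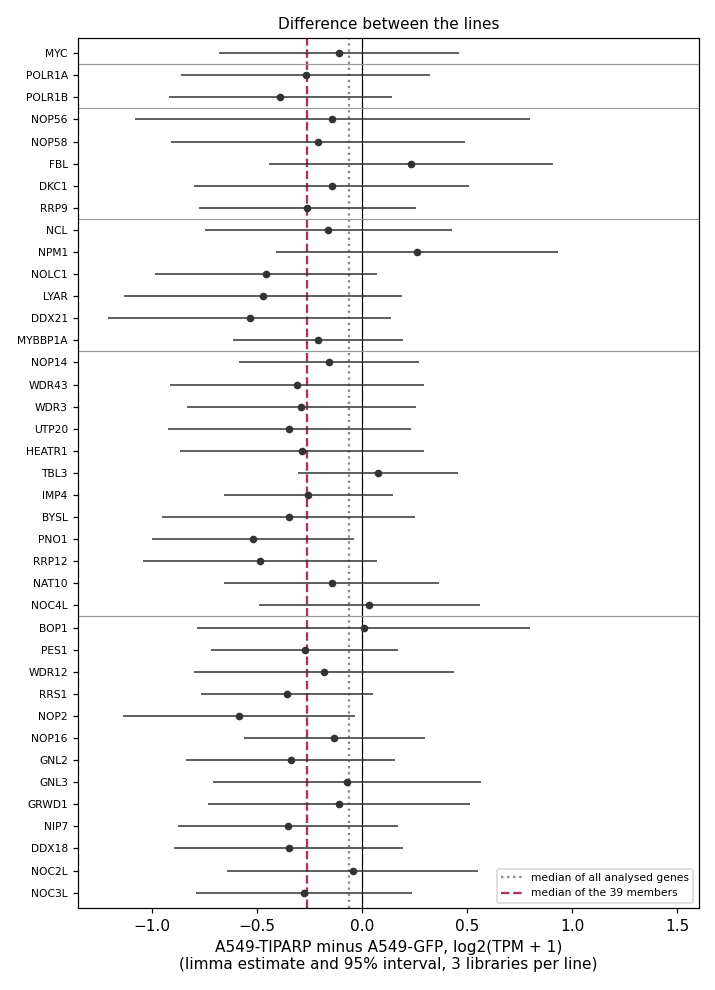
Difference between the lines for each member, as A549-TIPARP minus A549-GFP on log2(TPM + 1), with the limma estimate (point) and its 95% interval (bar), 3 libraries per line. The intervals of NOP2 and PNO1 alone lay below 0, and the dashed line marks the members' median of -0.26 beside -0.06 for all analysed genes (dotted).

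The E-box CACGTG, which reads the same on both strands, was searched in RefSeq promoter windows of GRCh38.p14 from 250 bases before to 50 bases after a transcript start. Windows were found for 32 of the 39 members, and 17 of these 32 (53.1%) held the sequence. It was held by 7.26% of all 35116 windows, by 12.6% of the 10344 analysed genes with a window and by 24.2% of the 99 genes with a window in the companion assembly lists described below. Of its 18 sites in members, 16 began within 50 bases of the start, and 12 lay after it. The sites below are those of the non-overlapping members with a window and of the members that led their role class by level or by difference. Each is printed in 30 bases, 5′ to 3′ on the strand of the gene, with the E-box in capitals.
NOP2, chr12:6568242-6568271, minus strand: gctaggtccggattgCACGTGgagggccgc
PNO1, chr2:68157885-68157914, plus strand: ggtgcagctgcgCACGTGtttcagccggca
GNL2, chr1:37595917-37595946, minus strand: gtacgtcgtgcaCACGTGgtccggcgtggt
IMP4 upstream, chr2:130342682-130342711, plus strand: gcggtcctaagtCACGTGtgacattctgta
IMP4 downstream, chr2:130342900-130342929, plus strand: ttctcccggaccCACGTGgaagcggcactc
DDX21, chr10:68956604-68956633, plus strand: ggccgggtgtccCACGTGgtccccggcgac
RRP9, chr3:51941892-51941921, minus strand: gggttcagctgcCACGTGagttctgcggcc
FBL, chr19:39846356-39846385, minus strand: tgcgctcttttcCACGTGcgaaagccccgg
Counted with the first transcribed base as 1, the E-box began at base 36 in NOP2, 10 in PNO1, 4 in GNL2, 16 in the downstream site of IMP4 and 7 in FBL. It began at -203 in the upstream site of IMP4, at -31 in DDX21 and at -5 in RRP9, where it spans the start. The other members with an E-box were BYSL, GNL3, LYAR, MYBBP1A, NAT10, NOC3L, NOP14, PES1, UTP20 and WDR43. Of the 17 members with the E-box 16 had a lower mean, with a median difference of -0.28, and of the 15 without it 12 did, with a median of -0.15. Over the analysed genes with a window the medians were -0.08 with the E-box and -0.07 without it. A match describes the letters of the window and does not show that a factor binds there.

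The RNA polymerase I subunits POLR1A and POLR1B form the catalytic core of the enzyme. POLR1B (chromosome 2, 112542036 to 112579818) had 20.9, 17.5 and 14.2 TPM in A549-GFP and 13.7, 15.1 and 10.6 TPM in A549-TIPARP. The libraries of the lines overlapped in A549-GFP replicate 3 and A549-TIPARP replicate 2. Its difference was -0.39 (standard error 0.23, limma adjusted p = 0.994). POLR1A (chromosome 2, 86020216 to 86105886) had 23.5, 15.8 and 16.8 TPM in A549-GFP and 15.9, 19.3 and 11.2 TPM in A549-TIPARP, with a difference of -0.27 that was -0.07 without A549-TIPARP replicate 3.

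The snoRNP proteins FBL and NOP56 were spread widely between libraries of 1 line. NOP56, NOP58 and the methyltransferase FBL are core proteins of box C/D snoRNPs, DKC1 is the pseudouridine synthase of box H/ACA snoRNPs, and RRP9 belongs to the U3 snoRNP. FBL (fibrillarin, chromosome 19, 39834458 to 39846379) was the most abundant, with 608, 335 and 785 TPM in A549-GFP and 620, 755 and 555 TPM in A549-TIPARP. A549-GFP replicates 2 and 3 held its lowest and highest values. Its mean log2(TPM + 1) was 9.09 ± 0.63 (SD, n = 3) in A549-GFP and 9.32 ± 0.22 (SD, n = 3) in A549-TIPARP, a difference of 0.23 (standard error 0.30, limma adjusted p = 0.994) that became -0.11 without A549-GFP replicate 2. NOP56 was singled out once its values were known. It had 429, 148 and 350.5 TPM in A549-GFP and 308, 329 and 163 TPM in A549-TIPARP. The highest A549-GFP library was 2.89 times the lowest and the highest A549-TIPARP library 2.02 times the lowest, while the difference between the lines was -0.14. It turned to 0.16 without A549-GFP replicate 1 and to 0.18 without A549-TIPARP replicate 3, and was -0.60 without A549-GFP replicate 2. The largest difference of the class was that of RRP9 (chromosome 3, 51933429 to 51941904), -0.26 (standard error 0.23, limma adjusted p = 0.994), which shrank to -0.05 without A549-TIPARP replicate 3. RRP9 had 55.2, 47.1 and 55.6 TPM in A549-GFP and 46.8, 55.1 and 32.2 TPM in A549-TIPARP. NOP58 and DKC1 had differences of -0.21 and -0.15, which turned to 0.04 and 0.10 without A549-GFP replicate 1 and to 0.03 and 0.07 without A549-TIPARP replicate 3. Without A549-GFP replicate 2 they were -0.50 and -0.39.

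Among the nucleolar chaperones, helicases and regulators, NPM1 and NCL were the 2 most abundant of all 39 members. NPM1 (nucleophosmin, chromosome 5, 171387116 to 171410900), a histone and ribosomal protein chaperone, had 1565, 665 and 1255 TPM in A549-GFP. In A549-TIPARP it had 1285, 1492 and 1175 TPM. The lowest library was again A549-GFP replicate 2, and the other 5 overlapped. The difference of 0.26 (standard error 0.29, limma adjusted p = 0.994) was the highest among the members and became -0.096 without A549-GFP replicate 2. Each table also holds 50 NPM1 pseudogenes, all of them listed at 0 in all 6 libraries, which can be low levels or missing estimates. Reads that match both NPM1 and a pseudogene were counted in a way that is not given in the sources used here. NCL (nucleolin), which binds the ribosomal RNA precursor and was picked out for its level with its values known, had 1191, 654 and 825 TPM in A549-GFP and 850.5, 919.7 and 586 TPM in A549-TIPARP, a difference of -0.16. The NCL difference turned to 0.07 without A549-GFP replicate 1 and to 0.04 without A549-TIPARP replicate 3, and was -0.36 without A549-GFP replicate 2.

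The largest difference of this class was that of DDX21 (chromosome 10, 68956170 to 68985068), an RNA helicase of RNA polymerase I transcription and ribosomal RNA processing. DDX21 had 137, 90.4 and 66.8 TPM in A549-GFP and 67.4, 82.5 and 48.2 TPM in A549-TIPARP. A549-GFP replicate 3 lay below both A549-TIPARP replicates 1 and 2, so the lines overlapped. The difference was -0.53 (standard error 0.30, limma adjusted p = 0.994), and -0.27 without A549-GFP replicate 1. NOLC1, a chaperone of snoRNPs, LYAR, a nucleolar protein of proliferating cells, and MYBBP1A, a nucleolar regulator, had differences of -0.46, -0.47 and -0.21, and of -0.28, -0.17 and -0.14 without A549-TIPARP replicate 3.

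Of the 12 small subunit factors 10 had a lower mean, with a median difference of -0.29 that was -0.10 without A549-GFP replicate 1 and -0.13 without A549-TIPARP replicate 3. PNO1 (chromosome 2, 68157888 to 68176238), which acts in the late steps of small subunit maturation, had 63.4, 57.2 and 46.3 TPM in A549-GFP. In A549-TIPARP it had 43.7, 41.5 and 30.8 TPM, and the lines did not overlap. Its mean log2(TPM + 1) was 5.81 ± 0.23 (SD, n = 3) in A549-GFP and 5.29 ± 0.27 (SD, n = 3) in A549-TIPARP. The difference of -0.52 (standard error 0.21) had a limma p-value of 0.0376 and an adjusted p-value of 0.994. Leaving out single libraries gave differences between -0.64 and -0.37. Its adjusted p-value over all alternatives, by limma, lay between 0.502 and 1.

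IMP4 (chromosome 2, 130342897 to 130347967), a component of the U3 snoRNP, was the most abundant small subunit factor. It had 83.5, 68.5 and 72.6 TPM in A549-GFP and 65.3, 68.2 and 54.2 TPM in A549-TIPARP, with a difference of -0.26 (standard error 0.18, limma adjusted p = 0.994). The lines did not overlap, but A549-GFP replicate 2 and A549-TIPARP replicate 2 were nearly equal, and the lines did overlap without small RNA entries, after median-ratio rescaling and after GC correction. RRP12, which acts in subunit export and was also singled out with its values known, had 38.5, 57.0 and 35.7 TPM in A549-GFP and 29.8, 37.6 and 24.8 TPM in A549-TIPARP, a difference of -0.49. A549-GFP replicate 2 was its highest library, in contrast to most members. The subunit processome proteins UTP20, BYSL, WDR43, WDR3, HEATR1 and NOP14 and the acetyltransferase NAT10 had differences from -0.35 to -0.14. TBL3 and NOC4L had differences of 0.08 and 0.03.

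Of the 13 large subunit factors 12 had a lower mean, with a median difference of -0.27. Without A549-GFP replicate 1 these values were 8 and -0.16, and without A549-TIPARP replicate 3 they were 9 and -0.10. NOP2 (chromosome 12, 6556871 to 6568291), a ribosomal RNA methyltransferase long used as a proliferation antigen, had 114, 164 and 91.0 TPM in A549-GFP. In A549-TIPARP it had 86.9, 87.2 and 65.5 TPM, below every A549-GFP library. Its mean log2(TPM + 1) was 6.91 ± 0.42 (SD, n = 3) in A549-GFP and 6.33 ± 0.23 (SD, n = 3) in A549-TIPARP, and it was the only member more than 1.5-fold lower (1.73% of all analysed genes). It passed that fold narrowly, and did not pass it after median-ratio rescaling (-0.52), without small RNA entries (-0.58) or after GC correction (-0.57). None was more than 1.5-fold higher (3.42% of all analysed genes). The difference of -0.59 (standard error 0.24) had a limma p-value of 0.0401 and an adjusted p-value of 0.994, which ran from 0.570 to 1 over the alternatives. Leaving out single libraries gave differences between -0.78 and -0.36, the smallest without A549-GFP replicate 2.

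RRS1, which brings the 5S particle into the large subunit, had 120, 118 and 97.6 TPM in A549-GFP and 93.7, 93.9 and 73.9 TPM in A549-TIPARP, with no overlap and a difference of -0.36. GNL2, a nucleolar GTPase, had 54.8, 42.9 and 45.6 TPM in A549-GFP and 42.4, 42.9 and 28.5 TPM in A549-TIPARP, a difference of -0.34 that was -0.15 without A549-TIPARP replicate 3. For GNL2 the lowest A549-GFP library and the highest A549-TIPARP library agreed to 3 digits, and the arrangement was lost under the same 3 alternatives as for IMP4. BOP1 forms the PeBoW complex with PES1 and WDR12 and was the most abundant factor of the class. It had 176, 82.2 and 201 TPM in A549-GFP and 156, 181 and 105 TPM in A549-TIPARP, a difference of 0.0066. The BOP1 difference changed sign without A549-GFP replicate 2 (-0.39), A549-TIPARP replicate 1 (-0.05) or A549-TIPARP replicate 2 (-0.16). The BOP1 partners PES1 and WDR12 had differences of -0.27 and -0.18. The GTPase GNL3 (nucleostemin), NOP16, GRWD1, NIP7, the helicase DDX18, NOC2L and NOC3L had differences from -0.35 to -0.046. RRS1 and GNL2 were given in full because their lines did not overlap, a choice made with their values known.

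For most members the libraries of 1 line lay further apart than the means of the lines, a comparison not made over all analysed genes. A549-TIPARP replicate 3 was the lowest A549-TIPARP library for 38 of the 39 members (46.9% of all analysed genes), and the exception was MYC. That library was below the mean of the other A549-TIPARP libraries by a median of 0.50 over the members (log2 difference -0.50), against -0.05 over all analysed genes, of which 55.7% were lower there. In A549-GFP replicate 2, 32 of the 39 members were below the mean of the other A549-GFP libraries, with a median of -0.30, while only 27.9% of all analysed genes were lower there and their median was 0.34. Both departures were negative for 31 of the 39 members and for 22.4% of all analysed genes. These 2 libraries were picked after their values were seen, so the counts are a description. The departure of A549-GFP replicate 2 varied in size, and a difference between the classes was not tested. All 5 snoRNP proteins were lower there, with a median of -0.86, and NOP56, BOP1, NPM1 and FBL by more than 1 on the log2 scale. All 6 nucleolar chaperones, helicases and regulators were lower there too, with a median of -0.34. So were 10 of the 12 small subunit factors (median -0.19) and 9 of the 13 large subunit factors (median -0.25). NOP2, RRP12, DDX18, NIP7, RRS1, PNO1 and POLR1B were higher there, by 0.68 for NOP2 and 0.61 for RRP12. MYC went with the snoRNP proteins in A549-GFP replicate 2 (-0.80) but not in A549-TIPARP replicate 3, where it was 0.20 above the other libraries of its line.

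The summed level of the 39 members was 6636, 3894 and 5556 TPM in A549-GFP and 5225, 5819 and 4085 TPM in A549-TIPARP. The lowest sum was thus in A549-GFP replicate 2 and the next in A549-TIPARP replicate 3, and the lines overlapped. TPM is a share of all transcripts in a library, and in such bulk RNA fewer cells with active ribosome production cannot be told apart from less of these transcripts per cell. MIR6723, an entry with the name of a microRNA, held between 5.52% and 9.78% of a library's TPM, the most in A549-TIPARP replicate 3 and the least in A549-GFP replicate 2. Whether its reads came from a microRNA was not tested. With the entries named as small RNAs left out and TPM set to an equal total, 34 members still had a lower mean and their median difference was -0.25. After rescaling by the median ratio, the members' median in A549-TIPARP replicate 3 was -0.49 relative to the A549-GFP mean, beside -0.0028 for all analysed genes, and that in A549-GFP replicate 2 was -0.43, beside 0.015. On that scale A549-GFP replicate 2 was the lowest of the 6 libraries for 21 members and A549-TIPARP replicate 3 for 18, and after GC correction these counts were 20 and 19. Over all analysed genes the shares were 31.0% and 15.3% after rescaling, and 32.2% and 16.1% after GC correction.

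**Figure D3:**
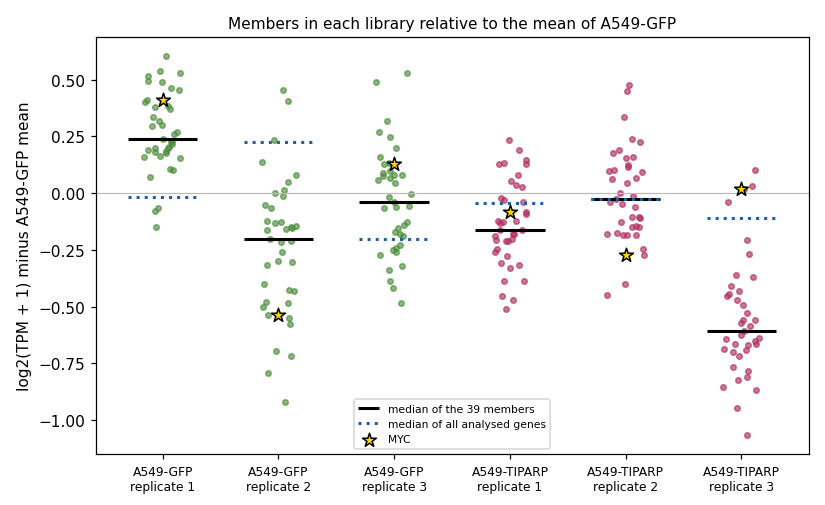
Position of each member (points) in each library, as its log2(TPM + 1) minus its A549-GFP mean, with the median of the 39 members (black line), the median of all analysed genes (dotted line) and MYC (star). The members' median was 0.24, -0.20 and -0.04 in A549-GFP and -0.16, -0.03 and -0.61 in A549-TIPARP, and MYC stood above the other members' median in A549-TIPARP replicate 3.

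The list of MAX, MYC antagonists and related network genes held 17 genes, of which 16 were analysed and MYCN was listed at 0 in all 6 libraries. Of the 16, 10 had a lower mean and the median difference was -0.03, which turned to 0.15 without A549-GFP replicate 2. MXD4, which pairs with MAX and opposes MYC, had 12.6, 15.6 and 16.1 TPM in A549-GFP and 27.1, 18.5 and 40.5 TPM in A549-TIPARP. No A549-GFP library reached the lowest of A549-TIPARP (5.36% of all analysed genes lay so), and the highest was A549-TIPARP replicate 3. Its difference of 0.85 (standard error 0.29) had a limma p-value of 0.0165 and an adjusted p-value of 0.983, which was 0.446 or higher in every alternative. MLX, the partner of the MondoA protein, had 61.9, 81.1 and 56.5 TPM in A549-GFP and 48.7, 53.2 and 43.5 TPM in A549-TIPARP, a difference of -0.44 (limma adjusted p = 0.994) that was -0.29 without A549-GFP replicate 2. MAX itself, given as the partner of MYC and not by the size of its difference, had 36.5, 42.1 and 29.1 TPM in A549-GFP and 31.5, 26.9 and 31.8 TPM in A549-TIPARP, and its lines overlapped.

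Of the 22 other MYC targets 19 were analysed, and CCND2, EIF4A1 and EIF4E were listed at 0 in all 6 libraries. EIF4A1 and EIF4E encode translation factors that every cell uses, so an entry at 0 in these tables may be a missing estimate. Of the 19, 16 had a lower mean, with a median difference of -0.14, and none had a limma unadjusted p-value under 0.05. Without A549-GFP replicate 1 only 8 had a lower mean and the median was 0.03, and without A549-TIPARP replicate 3 these values were 9 and 0.02. ODC1, the first enzyme of polyamine synthesis, had 228, 157 and 144 TPM in A549-GFP and 142, 142 and 103 TPM in A549-TIPARP, a difference of -0.44. The lines did not overlap (3.54% of all analysed genes lay below so), but by a narrow margin of 144 against 142 TPM. TFRC, the transferrin receptor, had a difference of -0.37 and overlapped. The TFRC difference was -0.08 without A549-GFP replicate 1, and also -0.08 without A549-TIPARP replicate 3. That of ODC1 was -0.24 without A549-GFP replicate 1 and -0.29 without A549-TIPARP replicate 3. In both libraries singled out above this list went with the members, since 18 of the 19 targets were lower in A549-GFP replicate 2 and in A549-TIPARP replicate 3 than in the rest of the line. The companion assembly lists described next differed between these libraries. In A549-TIPARP replicate 3, 39 of 40 other small subunit factors, 40 of 45 other large subunit factors, 15 of 15 snoRNP assembly genes and 11 of 14 RNA polymerase I machinery genes were lower, whereas in A549-GFP replicate 2 these counts were 22, 22, 7 and 7. The latter are 55%, 48.9%, 46.7% and 50% of the lists, above the 27.9% of all analysed genes that were lower in A549-GFP replicate 2. In A549-TIPARP replicate 3, 55.7% of all analysed genes were lower.

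**Figure D4:**
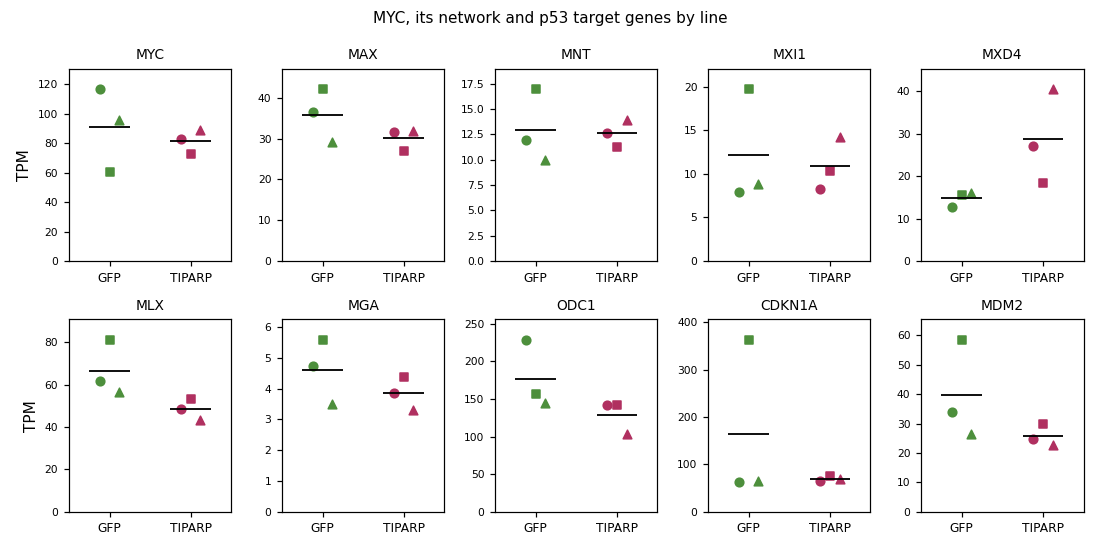
TPM of MYC, its partner MAX, the related network genes MNT, MXI1, MXD4, MLX and MGA, the MYC target ODC1 and the p53 targets CDKN1A and MDM2 in each library, with a circle, a square and a triangle for replicates 1, 2 and 3 and a line at the mean of each line. MXD4 stood higher in all 3 A549-TIPARP libraries, MLX and ODC1 lower, and CDKN1A reached 363 TPM in A549-GFP replicate 2 alone.

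Further assembly genes were grouped into 4 companion lists of 115 genes, of which 114 were analysed and PPAN was listed at 0. Of the 114, 100 had a lower mean (60.4% of all analysed genes did), with a median difference of -0.19. Without A549-TIPARP replicate 3 these values were 74 and -0.07, and without A549-GFP replicate 1 they were 81 and -0.11. None had a limma adjusted p-value under 0.05, and RIOK1 alone had an unadjusted one (0.88% of all analysed genes did with a lower mean). For 7 of them all A549-TIPARP libraries lay below all A549-GFP libraries (3.54% of all analysed genes), and for 1 above (5.36%). The 14 genes of the RNA polymerase I machinery had a median of -0.14 and 9 lower means. The median turned to 0.05 without A549-TIPARP replicate 3 and to 0.01 without A549-GFP replicate 1. They had the largest differences for the initiation factor RRN3 (-0.53) and TAF1A (-0.46, and -0.24 without A549-TIPARP replicate 3). For RRN3 the highest library was A549-GFP replicate 2 with 83.2 TPM, against 45.2 and 31.3 TPM in the other A549-GFP libraries and 29.8 to 37.7 TPM in A549-TIPARP, and without that library the difference was -0.15. Of the 40 other small subunit factors 38 had a lower mean. Their largest differences were those of the helicase DDX10 (-0.52) and the kinase RIOK1 (-0.49). RIOK1 had 24.3, 24.8 and 20.7 TPM in A549-GFP and 17.3, 18.9 and 13.1 TPM in A549-TIPARP, with a limma p-value of 0.0473 and an adjusted p-value of 0.994. Of the 45 analysed large subunit factors 41 had a lower mean, led by MAK16 (-0.60) and the helicase DDX55 (-0.51). Without A549-GFP replicate 2 DDX10 was at -0.27 and DDX55 at -0.29, and MAK16 was at -0.35 without A549-TIPARP replicate 3. Of the 15 snoRNP assembly genes 12 had a lower mean, with TGS1 (-0.32) and COIL (-0.28) at the lower end, and 8 did without A549-GFP replicate 1. TGS1 was at -0.14 without either A549-GFP replicate 1 or A549-TIPARP replicate 3, and COIL at -0.17 without the latter.

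Several members carry snoRNA genes inside their introns. By RefSeq coordinates 19 snoRNA entries of the tables lay within 6 members, 10 of them were analysed, and 8 were listed at 0 in all 6 libraries. The 3 with the highest mean all lay in NOP56. SNORD56 had 17.9, 16.4 and 22.8 TPM in A549-GFP and 16.02, 17.1 and 14.8 TPM in A549-TIPARP. SNORD57 had 12.1, 2.25 and 6.18 TPM in A549-GFP and 10.02, 10.7 and 9.24 TPM in A549-TIPARP. SNORD110 had 10.8, 4.45 and 12.5 TPM in A549-GFP and 6.58, 4.88 and 5.62 TPM in A549-TIPARP. The lines overlapped for each of the 10 analysed entries, and their differences ranged from -0.71 to 0.71. The libraries were made from messenger RNA, and whether reads on these entries came from the snoRNA or from its host transcript was not tested.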

How the data were processed

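RNA-seq of 3 A549-GFP and 3 A549-TIPARP libraries was analysed. The libraries were made with a stranded mRNA kit. The authors aligned the reads in Strand NGS, with hg38 as the build, and deposited log2 TPM per gene, with TPM below 1 set to 1. Values above the floor summed to between 998332 and 998442 TPM per library. The software version, the annotation release, the use of strand and the treatment of multiply matching reads are not given in the sources used here. TPM keeps no read depth, so no counting error was computed.

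The deposited log2 values were turned back to TPM, and genes with more than 2 TPM in at least 1 library were kept, as in the study's methods. limma 3.58.1 in R 4.3.3 was run with a variance trend on log2(TPM + 1) of all 13181 genes, without a block, with Benjamini-Hochberg adjustment over all of them. limma was checked on simulated data. Members were matched by symbol, and coordinates and promoter windows are from RefSeq on GRCh38.p14, the same build as hg38. The members, role classes and companion lists were chosen with earlier results of these data known. Genes named with values were MYC, the member with the highest level and the one with the largest difference in each class, members with an unadjusted p-value under 0.05 or a difference past 1.5-fold, and the 2 genes with the largest difference in each companion list. Other genes given library by library are said in the text to have been chosen otherwise, and the rest stand in the class lists by their difference alone. There were 14 alternative settings, and 2 more that were added once the data had been looked at. The GC correction fitted a lowess curve (span 0.3, statsmodels 0.14.6) to each library on the GC content of the longest GENCODE 44 transcript, known for 98.3% of the analysed genes.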

Additional observations from a re-analysis of the deposited data

How the results depend on the processing

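The depth of the libraries is unknown. With 3 libraries per line the members' standard errors had a median of 0.24 and ran from 0.17 for TBL3 to 0.41 for NOP56. The 95% intervals of all members but NOP2 and PNO1 included 0. The count of lower members (25 to 38) and the median difference (-0.36 to -0.10) kept their direction in all 16 alternatives, and no member had a limma adjusted p-value under 0.05 in any of them. At the low end they came near the values of all analysed genes. Without A549-GFP replicate 1, 64.1% of members and 59.4% of all analysed genes were lower, with medians of -0.10 and -0.06. Without A549-TIPARP replicate 3 these shares were 66.7% and 56.2%, with medians of -0.10 and -0.04. Members with an unadjusted p-value under 0.05 numbered 0 to 6 with each library left out in turn, 1 without a trend and 1 without A549-GFP replicate 2 and A549-TIPARP replicate 3 together, a setting chosen after the data were seen, where the member was MYC. Non-overlapping members numbered 5 to 15 with each library left out, 15 without those 2 libraries together (8.64% of all genes lay below), and 3 without small RNA entries (3.85%). Fewer libraries make such an arrangement more frequent. Without A549-GFP replicate 2 it held for 15 members and 6.42% of all genes below, without A549-TIPARP replicate 2 for 13 and 7.97%, without A549-GFP replicate 3 for 11 and 23.5%, and without each of the other 3 libraries for 5 members and 5.21% to 5.77%. The MYC log2 difference ran from -0.38 to 0.092 with each library left out, and was -0.45 without those 2 libraries together. With each library left out BOP1 ran from -0.39 to 0.25, FBL from -0.11 to 0.50, NPM1 from -0.096 to 0.52, ZFAS1 from -0.68 to 0.26 and CDKN1A from -1.13 to 0.12. Without those 2 libraries together they were -0.16, -0.014, -0.017, 0.088 and 0.12, and BOP1 was -0.062 after GC correction. The cause was not tested. With a pseudocount of 0.1 or none, a filter of 2 TPM in at least 3 libraries or no filter, 34 members were lower, 2 had an unadjusted p-value under 0.05 and 5 did not overlap, as reported.

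Deviations of same-numbered libraries correlated with r = 0.45, -0.52 and -0.38 across genes in experiments 1, 2 and 3. Each deviation was taken from the mean of only 3 libraries, so these values can neither show nor exclude a pairing by experiment. Fitted with a replicate block on that number, 3 members had an unadjusted p-value under 0.05 (PNO1, NOP2 and RRP12), in place of 2, the MYC adjusted p-value was 0.999, and 414 of all genes had an unadjusted p-value under 0.05, in place of 508. Over all analysed genes that count was 253 to 1379 with each library left out, 1227 without A549-GFP replicate 2 and A549-TIPARP replicate 3 together, 786 after median-ratio rescaling and 805 after GC correction. The block changed no other call on a member.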

Other observations

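The 8 genes of the 5S ribonucleoprotein and p53 checkpoint, which respond when ribosome assembly is disturbed, had 5 lower means and a median difference of -0.16 in A549-TIPARP cells. Leaving out A549-GFP replicate 2 gave 4 lower means and a median of 0.03. CDKN1A, the cell cycle inhibitor p21, had, in replicate order, 62.8, 363 and 65.6 TPM in A549-GFP and 65.7, 74.7 and 70.1 TPM in A549-TIPARP. MDM2, which degrades p53, had 33.8, 58.5 and 26.6 TPM in A549-GFP and 24.6, 30.03 and 22.8 TPM in A549-TIPARP. Both p53 targets were highest in A549-GFP replicate 2, as were 52.0% of all analysed genes. The differences between the lines were -0.70 for CDKN1A and -0.53 for MDM2 (limma adjusted p = 0.994 for each), and without A549-GFP replicate 2 they were 0.12 and -0.22.

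The 15 exosome and RNA decay genes, which trim ribosomal RNA precursors, had 11 lower means and a median difference of -0.02. Without A549-GFP replicate 1 these values were 5 and 0.07, and without A549-TIPARP replicate 3 they were 4 and 0.08. DIS3 and EXOSC5 had the largest differences, -0.36 and -0.29, which were -0.09 for each without A549-GFP replicate 2. The 13 snoRNA host genes had 9 lower means and a median of -0.13, and without A549-GFP replicate 2 these values were 6 and 0.0054. SNHG15 had 42.4, 66.9 and 42.5 TPM in A549-GFP and 37.7, 36.0 and 28.3 TPM in A549-TIPARP, without overlap. Its difference of -0.54, which was -0.32 without A549-GFP replicate 2, had a limma p-value of 0.0485 and an adjusted p-value of 0.994. ZFAS1 had 200, 742 and 234 TPM in A549-GFP and 237, 223 and 331 TPM in A549-TIPARP, and its difference of -0.33 became 0.26 without A549-GFP replicate 2.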
